A study of Homo sapiens with 6 samples.

Results

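The genes described here are the collagens, laminins and integrins, the chains that build the extracellular matrix and the receptors that bind cells to it. They were chosen by symbol alone, as the probes whose annotated gene symbol is COL, LAMA, LAMB or LAMC followed by a digit, or ITGA or ITGB followed by a digit or letter, without the integrin binding proteins ITGB1BP and ITGB3BP. This gave 136 of 47321 probes and 83 of 20045 genes: 45 collagens, 11 laminins, 18 integrin alpha and 9 integrin beta genes. Of the 83, 79 encode a chain, while COL6A4P1, COL6A4P2 and LAMB2P1 are pseudogenes and ITGBL1 encodes an integrin-beta-like protein.

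Illumina HumanHT-12 V4.0 arrays were hybridised with RNA of cells labelled HCC1954, a HER2-positive breast carcinoma line. Of the 6 samples, 3 were given TBK1 inhibitor II, a compound whose name points to the innate immune kinase TBK1, and 3 received vehicle, each for 3 days. The labels used here give neither the dose nor the vehicle, nor whether samples of a group were separate cultures. The spread behind each p-value is thus that between these samples and may be technical.

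Collagens are trimers of chains wound into a triple helix. Fibrillar collagens form the load-bearing fibres of connective tissue, whereas collagen IV forms the network of basement membranes, the thin sheets on which epithelia rest. Laminins are trimers of an alpha, a beta and a gamma chain and form the other main network of the basement membrane, and integrins are pairs of an alpha and a beta chain that bind collagen, laminin or fibronectin outside the cell and link them to the actin cytoskeleton.

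Inhibitor replicates 1, 2 and 3 had 19676, 20741 and 20598 detected probes, against 18325, 19857 and 20127 in vehicle replicates 1, 2 and 3. Samples correlated at 0.988 to 0.991 within the inhibitor group, 0.975 to 0.985 within the vehicle group and 0.968 to 0.981 between the groups, over the kept probes. The labelled cell type was not borne out as a whole, since markers went both ways. Of 16 luminal epithelial markers on the array, KRT8, KRT18, EPCAM, CDH1 and FOXA1 were detected on all 6 arrays. The luminal markers KRT7, KRT19, CLDN3, CLDN7, ESRP1 and ESRP2 were detected on 0. Of 11 mesenchymal and neural markers 10 were detected on all 6 arrays, of 5 basal epithelial markers 0, and of 9 endothelial markers 0. Samples are therefore called by their labelled treatment only. Bulk RNA cannot tell fewer cells of a type from less RNA per cell.

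A probe counted as detected on an array where its deposited detection p-value, against the negative control probes, was under 0.05. By the probe detected on most arrays, 32 of the 83 genes (38.6%) were detected on all 6 arrays, 22 on 1 to 5 and 29 on 0, beside 48.9% of all 20045 genes on all 6. Per array, 41, 44 and 44 of the 83 genes were detected in the inhibitor samples, and 36, 38 and 43 in the vehicle samples. The 2 groups overlapped in this count. An undetected gene is not shown to be silent, since a weak probe gives the same reading.

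**Figure D1:**
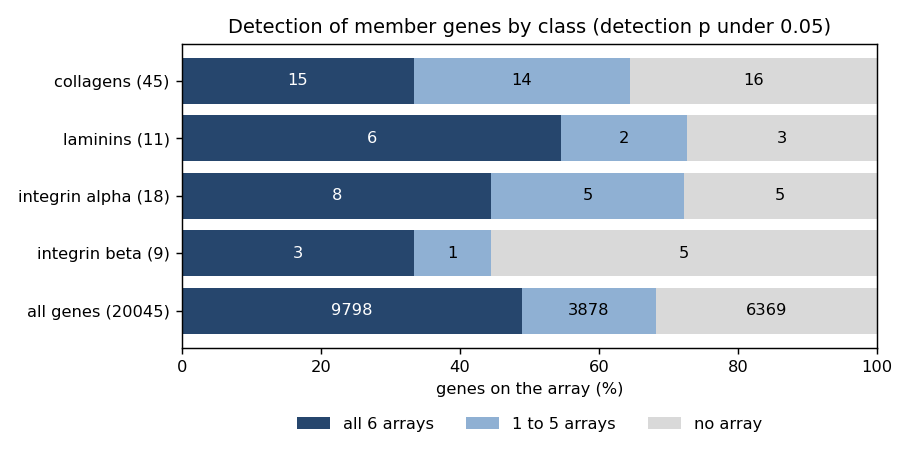
Detection by class, as the percentage of genes on the array (horizontal axis) detected on all 6 arrays, on 1 to 5 arrays and on no array at a detection p under 0.05; numbers in the bars are genes. Laminins had the highest share detected on all 6 arrays of the 4 classes, 6 of 11 genes, and integrin beta genes the highest share detected on none, 5 of 9.

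Among collagens, 15 of 45 genes were detected on all 6 arrays: the fibrillar chains COL1A1, COL3A1, COL5A1 and COL5A2, the network chains COL4A1, COL4A2, COL4A5, COL4A6 and COL8A2, the beaded filament chains COL6A1 and COL6A2, the anchoring fibril chain COL7A1, the transmembrane chains COL13A1 and COL23A1, and COL18A1, whose C-terminal fragment is endostatin. Partner chains of the same trimer were often not detected together. COL1A1 was detected on all 6 arrays and its partner in collagen I, COL1A2, on 0, with signal intensities of 109.5, 110.4 and 120.2 for COL1A2 in the inhibitor samples and 92.1, 99.2 and 134.3 in the vehicle samples. COL6A1 and COL6A2 were on 6 arrays and COL6A3, the third chain of collagen VI, on 1. COL4A5 and COL4A6, which form a trimer with each other, were both on 6, while COL4A3 and COL4A4, the partners of COL4A5 in kidney glomeruli, were on 0. Of the cartilage collagen chains, COL2A1, COL9A1, COL9A2, COL10A1 and COL11A1 were detected on 0 arrays, COL9A3 on 1 and COL11A2 on 5.

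Of the laminin chains, LAMA1, LAMA5, LAMB1, LAMB2, LAMC1 and LAMC3 were detected on all 6 arrays, LAMA4 on 4, and LAMA2, LAMB3 and LAMB4 on 0. Of 8 trimers with LAMC1 as gamma chain whose chains are all on the array, 4 thus had every chain detected, laminin-111, laminin-121, laminin-511 and laminin-521, and trimers with LAMC3 were not counted. Of the integrins, both chains were detected on all 6 arrays for 8 of 24 known pairs. ITGB1, the beta chain with the most partners, was detected with ITGA1 and ITGA2 (collagen receptors), ITGA3 (a laminin receptor), ITGA4 and ITGA9 (receptors for fibronectin or tenascin and for VCAM1), ITGA5 (the classical fibronectin receptor) and ITGAV, and ITGAV was also detected with ITGB5. The other beta partners of ITGAV, ITGB3, ITGB6 and ITGB8, were on 0.

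The laminin receptor chain ITGA6 was detected on 4 arrays, and ITGB4, its partner in hemidesmosomes, on 0 inhibitor arrays and 2 vehicle arrays. Of the leukocyte integrins, ITGB2 was detected on all 6 arrays without any of its alpha partners ITGAL, ITGAM, ITGAX and ITGAD, which were on 0. ITGAE, which pairs with ITGB7 on intraepithelial lymphocytes, was likewise on 6 with ITGB7 on 0. The pan-leukocyte gene PTPRC was on 0 arrays, and of 11 leukocyte markers 1 was detected on all 6 arrays and 8 on none.

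For the comparison of treatments, a gene was measured where a probe was detected on at least 3 of the 6 arrays, which held for 42 of the 83 genes: 21 collagens, 8 laminins, 10 integrin alpha and 3 integrin beta genes. The other 41 have no comparison here, 12 of them with a probe detected somewhere. The used probe of 32 of the 42 was detected on all 6 arrays. Levels below are normalized log2 intensities, differences are inhibitor minus vehicle on that scale with limma's standard error, and a gene was called where limma's p-value, adjusted by the Benjamini-Hochberg method over all 11582 genes tested, was under 0.05.

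Most of these genes did not pass the test. Called genes numbered 4 of 42 (9.52%), against 5.45% of all genes tested. Collagens COL7A1 and COL24A1 were higher in inhibitor samples, and the laminin chain LAMB1 and the integrin subunit ITGA9 were lower. Of all genes tested, 3.59% were called higher and 1.86% lower. COL24A1 was measured only through the inhibitor arrays, on which alone it was detected, and so had to differ. Among the 32 genes detected on all 6 arrays 3 were called (9.38%), against 5.21% of the 9784 genes so detected. An unadjusted p under 0.05 was reached by 15 of the 42, and by 2829 of all 11582 genes (24.4%). Without inhibitor replicate 1, 2 or 3 limma called 0 of the 4 classes' genes, and called 12, 2 and 2 genes of the whole array higher and 6, 0 and 0 lower. An unadjusted p under 0.05 was then reached by 14 of 39, 9 of 37 and 8 of 39 genes of the 4 classes, beside 2262 of 11296, 2057 of 11208 and 1855 of 11231 genes in all.

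**Figure D2:**
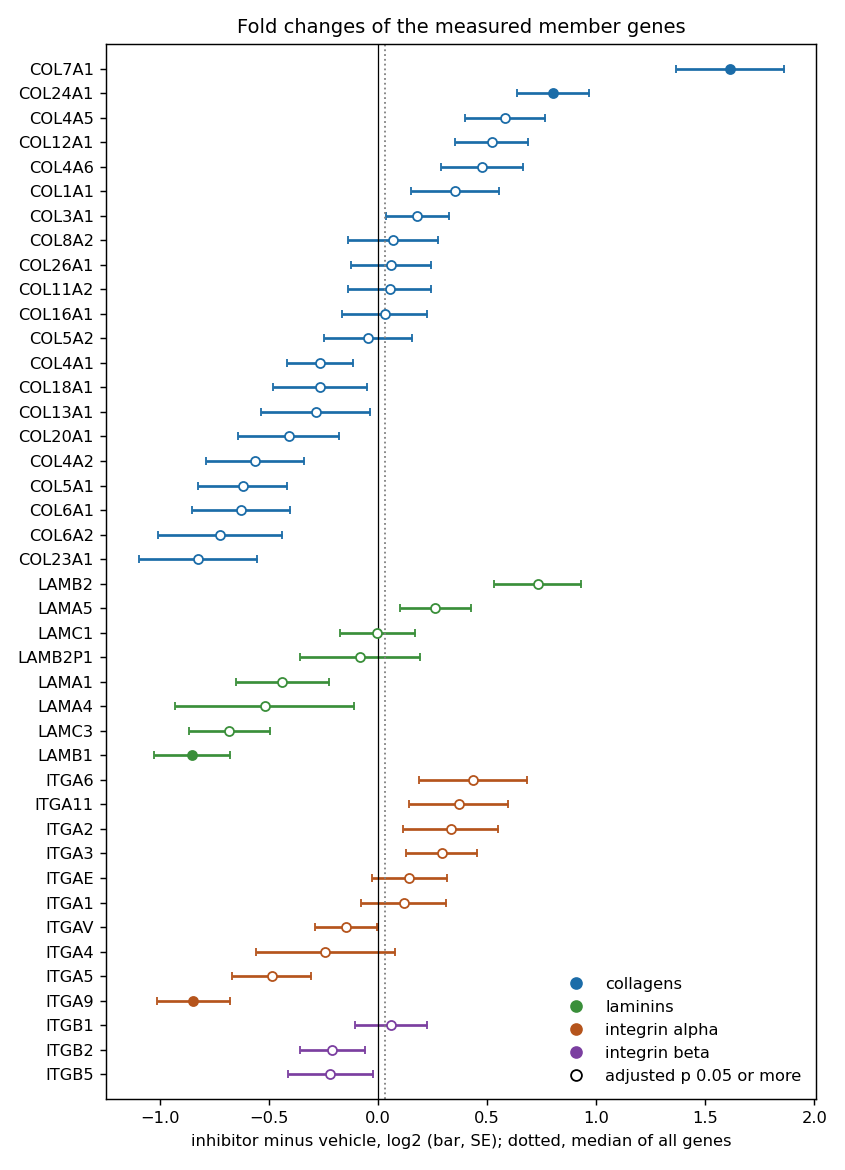
Difference between inhibitor and vehicle samples (log2, horizontal axis) for each of the 42 measured genes, ordered within class, with limma's SE as the bar; filled points had an adjusted p under 0.05 and the dotted line is the median of all genes tested (0.03). COL7A1 lies apart at 1.61, and in each of the 4 classes values lie on both sides of 0.

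COL7A1 encodes the chain of collagen VII, which forms the anchoring fibrils that tie epithelial basement membranes to the tissue beneath. It showed the clearest change of any gene in the 4 classes. Its probe read signal intensities of 206.7, 239.0 and 341.2 in inhibitor samples, against 113.1, 108.6 and 189.8 in vehicle samples. After normalization its levels were 7.08, 6.998 and 7.50 with inhibitor, and 5.61, 5.11 and 6.03 with vehicle. Every inhibitor sample lay above every vehicle sample, and the gap between the groups was wider than the spread within either. COL7A1 averaged 7.20 ± 0.27 in inhibitor samples and 5.58 ± 0.46 in vehicle samples (SD, n = 3 each), so that it rose 3.06-fold (log2 1.61 ± 0.25, limma adjusted p = 0.0189). Vehicle replicates 1 and 2 were close to background, with detection p-values of 0.0130 and 0.0338, against 0.0026 in vehicle replicate 3. Without background correction the difference was 0.77 (limma adjusted p = 0.00393), so the size of the rise depends on that correction. The difference was smaller in the deposited processed values, at 0.64 on their log-like scale (limma adjusted p = 0.00827), and without inhibitor replicate 1, 2 or 3 the difference of 1.68, 1.70 or 1.42 no longer passed (limma adjusted p = 0.0694, 0.0891 and 0.0967).

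The sequence just upstream of the COL7A1 start is printed because this gene moved most, together with that of LAMB1, which moved the other way. Both are 250 bases from RefSeq on GRCh38.p14, 5′ to 3′ on the strand of the gene and ending at the base before the start, COL7A1 at chr3:48595330-48595579 (minus strand) and LAMB1 at chr7:108003162-108003411 (minus strand). Capitals mark matches to 3 motifs searched on both strands: the GC box GGGCGG (bound by SP1 and relatives), the CCAAT box CCAAT and the AP-1 site TGANTCA.
COL7A1: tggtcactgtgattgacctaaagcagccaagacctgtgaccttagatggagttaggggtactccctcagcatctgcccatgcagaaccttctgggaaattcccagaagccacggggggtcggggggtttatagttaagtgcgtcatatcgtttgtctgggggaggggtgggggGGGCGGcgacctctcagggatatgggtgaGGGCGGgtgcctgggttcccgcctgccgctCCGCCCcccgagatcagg
LAMB1: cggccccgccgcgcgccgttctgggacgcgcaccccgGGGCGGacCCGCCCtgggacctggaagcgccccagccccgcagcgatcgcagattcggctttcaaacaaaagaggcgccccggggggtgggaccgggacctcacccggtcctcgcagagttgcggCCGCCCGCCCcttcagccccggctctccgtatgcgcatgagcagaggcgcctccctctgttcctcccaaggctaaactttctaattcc
The COL7A1 window held 3 GC boxes and the LAMB1 window 4, of which 2 overlap, and neither held the other motifs. Of 35116 RefSeq promoter windows of this length, 42.6% held a GC box, 32.0% a CCAAT box and 6.57% an AP-1 site, so a GC box is common and its presence here is a description of the letters only.

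Fibrillar collagens showed no shared direction. COL24A1, a minor fibrillar chain, was detected on 3 inhibitor arrays and 0 vehicle arrays, so the filter kept it only where it was high. Its levels were 5.28, 5.33 and 5.52 in inhibitor samples, and 4.38, 4.59 and 4.75, not above background, in vehicle samples. It was at least 1.25-fold higher with inhibitor, set against the lowest detected level of each vehicle array or the probe's own level where that was higher (fitted difference 0.80 ± 0.17, limma adjusted p = 0.0320, a value that depends on the background correction). In the deposited processed values the difference was 0.24 and no longer passed (limma adjusted p = 0.0926), nor did it without vehicle replicate 1, 2 or 3 (0.0563, 0.0526 and 0.0512), and without an inhibitor replicate the gene was not measured.

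COL1A1, a chain of the main collagen of bone and skin, had levels of 7.82, 7.19 and 7.14 in inhibitor samples, against 7.06, 7.05 and 6.97 in vehicle samples (difference 0.35 ± 0.20, limma adjusted p = 0.318). The inhibitor values were all above the vehicle values, but inhibitor replicate 1 alone stood well apart. COL3A1, the chain of collagen III in skin and vessel walls, had 8.85, 8.86 and 8.82 with inhibitor and 8.72, 8.56 and 8.71 with vehicle (0.18 ± 0.15, limma adjusted p = 0.490). COL5A1, which helps start collagen fibrils, pointed the other way, with 6.61, 6.37 and 6.69 in inhibitor samples and 6.90, 7.06 and 7.57 in vehicle samples (-0.62 ± 0.20, limma adjusted p = 0.104). Its groups did not overlap, yet the difference did not pass. For its partner COL5A2 the difference was -0.05 (limma adjusted p = 0.916) and for COL11A2, on 5 arrays, 0.05 (limma adjusted p = 0.896). Of 6 measured fibrillar genes 1 was called, against 5.45% of all genes tested. That gene, COL24A1, was measured only through the inhibitor arrays, and it also enters the median difference of the 6, which was 0.12.

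Collagen IV genes lie in pairs, each pair read in opposite directions from neighbouring starts. The starts in RefSeq were 127 bases apart for COL4A1 and COL4A2 on chromosome 13, and 380 bases apart for COL4A6 and COL4A5 on chromosome X. COL4A1, the most widespread basement membrane collagen chain, had levels of 8.96, 8.67 and 8.84 in inhibitor samples, against 9.03, 9.09 and 9.15 in vehicle samples (-0.27 ± 0.15, limma adjusted p = 0.320). COL4A2, its partner in the trimer, had 6.72, 6.64 and 6.40 with inhibitor and 7.29, 7.49 and 6.67 with vehicle (-0.57 ± 0.22, limma adjusted p = 0.164). In this pair both differences were below 0 and neither passed. The other pair lay above 0: COL4A5 had 8.75, 9.01 and 9.25 in inhibitor samples, against 8.20, 8.54 and 8.53 in vehicle samples (0.58 ± 0.18, limma adjusted p = 0.0976). COL4A6 had 7.59, 7.68 and 8.09 in inhibitor samples and 7.17, 7.51 and 7.25 in vehicle samples (0.48 ± 0.19, limma adjusted p = 0.160). The groups did not overlap for COL4A1, COL4A5 or COL4A6, while for COL4A2 vehicle replicate 3 fell among the inhibitor values. COL4A5 passed the test under 4 of 15 alternative settings, among them the deposited processed values (0.45, limma adjusted p = 0.0386), and its other kept probe gave 0.37.

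The shared upstream region of COL4A1 and COL4A2 and that of COL4A5 are printed because the members of each pair lay on the same side of 0 in these samples. The first is the whole 126 bases between the 2 starts, chr13:110307158-110307283 on GRCh38.p14, read on the plus strand toward COL4A2, and the second is the 250 bases before the COL4A5 start, chrX:108439588-108439837 (plus strand). Capitals mark the same 3 motifs.
COL4A1-COL4A2: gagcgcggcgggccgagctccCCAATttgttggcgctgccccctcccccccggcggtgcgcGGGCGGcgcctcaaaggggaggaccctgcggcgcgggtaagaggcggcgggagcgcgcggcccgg
COL4A5: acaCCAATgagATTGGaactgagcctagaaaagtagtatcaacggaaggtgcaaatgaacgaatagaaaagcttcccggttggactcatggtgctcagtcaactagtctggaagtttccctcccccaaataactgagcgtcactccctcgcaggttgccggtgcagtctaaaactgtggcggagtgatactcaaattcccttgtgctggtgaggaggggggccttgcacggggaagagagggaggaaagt
The region between COL4A1 and COL4A2 held 1 GC box and 1 CCAAT box, which 34.6% and 21.1% of promoter windows of 126 bases hold. The COL4A5 window held 2 CCAAT boxes and no GC box.

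The remaining collagens gave no call. COL6A1, a chain of the beaded filaments that surround many cells, had levels of 6.92, 6.91 and 6.73 in inhibitor samples, against 7.52, 7.91 and 7.02 in vehicle samples (-0.63 ± 0.23, limma adjusted p = 0.131). Its partner COL6A2 had 6.25, 5.54 and 5.64 with inhibitor and 6.08, 7.10 and 6.43 with vehicle (-0.73 ± 0.28, limma adjusted p = 0.161). The groups were apart for COL6A1 and overlapped for COL6A2. The transmembrane collagen COL23A1 had 5.35, 5.18 and 5.21 in inhibitor samples, against 5.38, 6.45 and 6.39 in vehicle samples (-0.83 ± 0.27, limma adjusted p = 0.104). Vehicle replicate 1 lay beside the inhibitor values, and without it the difference was -1.21 and passed (limma adjusted p = 0.0244). COL23A1 passed under that 1 of 14 alternative settings only, and in the deposited processed values the difference was -0.25 (limma adjusted p = 0.146). Before normalization its intensities of 124.5, 130.8 and 146.2 in inhibitor samples overlapped those of 108.9, 145.3 and 212.7 in vehicle samples. For the transmembrane chain COL13A1 the difference was -0.29 (limma adjusted p = 0.525), for COL18A1 -0.27 (0.491) and for COL8A2, a chain of the corneal Descemet membrane, 0.07 (0.872).

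For COL12A1, which binds to the surface of collagen I fibrils, the used probe was like that of COL24A1 detected on 3 inhibitor arrays and 0 vehicle arrays. Its levels were 5.30, 5.40 and 5.38 with inhibitor and 5.08, 4.78 and 4.64, not above background, with vehicle. Kept through the inhibitor arrays alone, COL12A1 had to lie higher there. By the same bound it was at least 1.23-fold higher with inhibitor, and it was not called (limma adjusted p = 0.0990). The other COL12A1 probe, detected on inhibitor replicate 3 and vehicle replicate 3 and so not kept, averaged 4.997 ± 0.33 with inhibitor and 5.30 ± 0.69 with vehicle (SD, n = 3 each), and its groups overlapped. Across the 21 measured collagens the median difference was 0.03, equal to that of all genes at this precision, with 11 genes above 0 and 10 below. COL24A1 and COL12A1, kept through the inhibitor arrays alone, had to be among the 11 and also enter that median. The median was -0.27 over the collagens with a detection p under 0.01 on all 6 arrays, and between -0.25 and 0.059 with 1 sample left out.

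**Figure D3:**
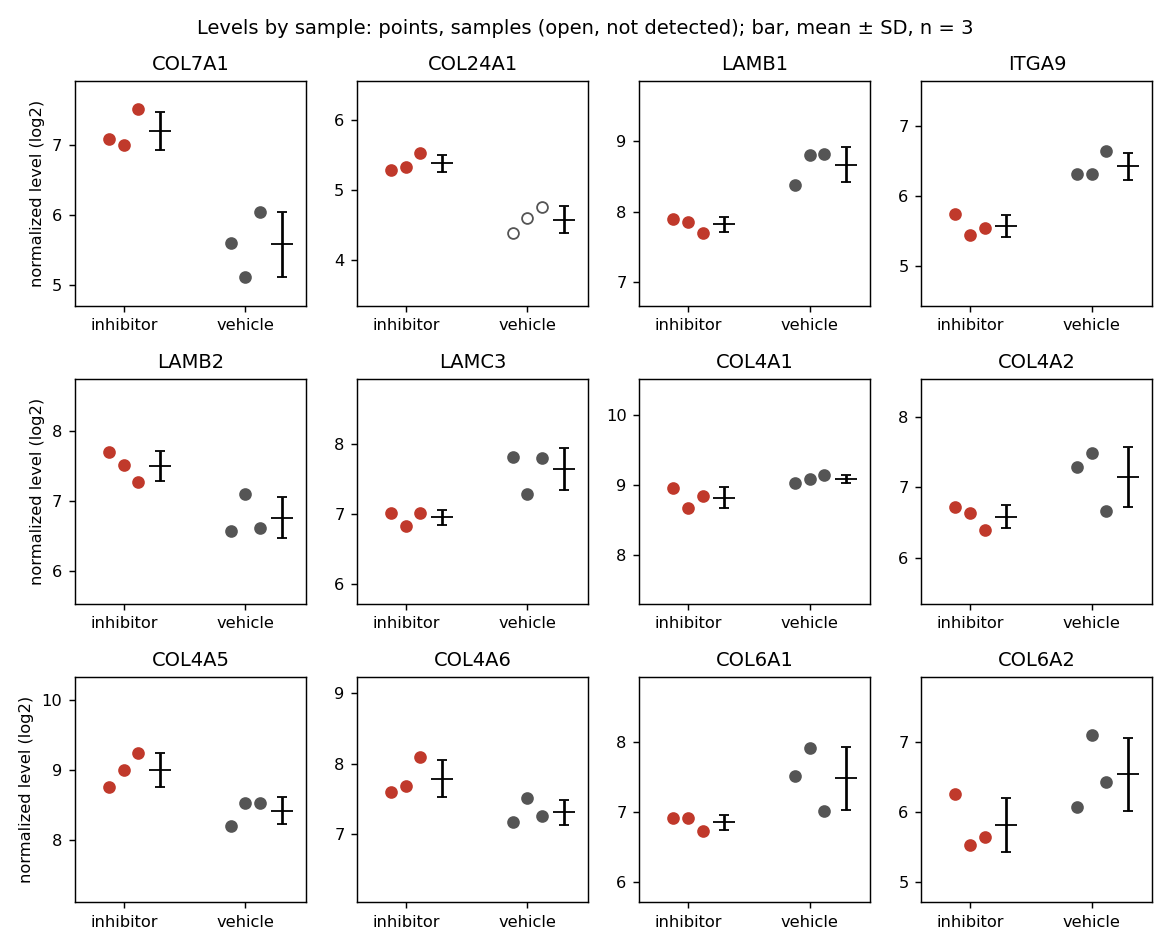
Normalized level (log2, vertical axes, the same span of log2 units in each panel) of 12 genes by sample, inhibitor samples left in red and vehicle samples right in grey, with mean ± SD beside them (n = 3) and open points where the probe was not detected. COL7A1 and COL24A1 lie higher with inhibitor and LAMB1 and ITGA9 lower without overlap, while COL4A2 and COL6A2 overlap between the groups. COL24A1 was measured only through the inhibitor arrays and so had to lie higher there.

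Among the laminins 1 of 8 measured genes was called (12.5%), against 5.45% of all genes tested. LAMB1, the beta chain of laminin-111 and laminin-511, had levels of 7.90, 7.86 and 7.70 in inhibitor samples, against 8.38, 8.81 and 8.82 in vehicle samples. The groups did not overlap, and the inhibitor samples were the tighter. LAMB1 averaged 7.82 ± 0.11 with inhibitor and 8.67 ± 0.25 with vehicle (SD, n = 3 each) and fell by 0.85 on the log2 scale (SE 0.18, limma adjusted p = 0.0316). Its other kept probe had 7.87, 8.12 and 7.67 in inhibitor samples, against 8.25, 8.03 and 8.35 in vehicle samples, which overlapped (-0.33 ± 0.18, limma p adjusted over all kept probes 0.313). With both probes averaged the difference was -0.59 and did not pass (limma adjusted p = 0.0613). It did not pass either after median centring (-0.58, limma adjusted p = 0.254), nor without inhibitor replicate 1, 2 or 3 or vehicle replicate 2 or 3 (limma adjusted p = 0.0945, 0.115, 0.131, 0.0625 and 0.0712).

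LAMB2, the beta chain that takes the place of LAMB1 in laminin-121 and laminin-521 and is concentrated at neuromuscular junctions and in glomeruli, pointed the opposite way. Its levels were 7.70, 7.51 and 7.27 in inhibitor samples, against 6.57, 7.10 and 6.62 in vehicle samples, without overlap. The difference of 0.73 ± 0.20 did not pass (limma adjusted p = 0.0632), though it did under 7 of 15 alternative settings, at 0.38 in the deposited processed values (limma adjusted p = 0.0413) and 1.04 after median centring (limma adjusted p = 0.0162). LAMC3, a gamma chain, had 7.02, 6.83 and 7.02 with inhibitor and 7.81, 7.29 and 7.80 with vehicle (-0.68 ± 0.19, limma adjusted p = 0.0652). Its groups did not overlap, and it passed under 6 of 15 alternative settings.

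The other laminin chains differed less. LAMC1, the gamma chain of laminin-111, laminin-121, laminin-511 and laminin-521, had levels of 10.98, 10.81 and 10.89 in inhibitor samples and 10.63, 10.95 and 11.11 in vehicle samples, with a difference of -0.00 ± 0.17 (limma adjusted p = 0.994). LAMA5, the alpha chain of laminin-511, had 9.86, 9.55 and 9.75 with inhibitor and 9.31, 9.48 and 9.59 with vehicle (0.26 ± 0.16, limma adjusted p = 0.362). LAMA1, the alpha chain of laminin-111, had 7.27, 6.89 and 7.07 with inhibitor and 7.08, 7.72 and 7.74 with vehicle (-0.44 ± 0.21, limma adjusted p = 0.241), and its other probe gave -0.03. For LAMA4, a chain of vessel basement membranes, the value of vehicle replicate 1 was 6.46, against 4.65 and 5.51 in the other vehicle samples, and the difference of -0.52 ± 0.41 did not pass (limma adjusted p = 0.480). The 8 laminin genes had a median of -0.26, with 2 above 0 and 6 below, where the pseudogene LAMB2P1 lay at -0.08.

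Among the integrin alpha subunits 1 of 10 measured genes was called, against 5.45% of all genes tested. ITGA9, whose pair with ITGB1 binds tenascin-C and osteopontin, had levels of 5.74, 5.44 and 5.54 in inhibitor samples, against 6.32, 6.31 and 6.64 in vehicle samples. Every inhibitor value was below every vehicle value. ITGA9 averaged 5.57 ± 0.15 with inhibitor and 6.42 ± 0.19 with vehicle (SD, n = 3 each) and fell by 0.85 on the log2 scale (SE 0.17, limma adjusted p = 0.0300). Its signal was dim, and before normalization intensities of 135.3, 139.8 and 159.9 in inhibitor samples overlapped those of 131.3, 139.3 and 232.6 in vehicle samples. The difference did not pass in the deposited processed values (-0.28, limma adjusted p = 0.0537), after median centring (-0.61, limma adjusted p = 0.227), or without inhibitor replicate 1, 2 or 3 or vehicle replicate 3 (limma adjusted p = 0.0838, 0.121, 0.123 and 0.0667).

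ITGA5, the fibronectin receptor subunit, had levels of 7.13, 6.95 and 7.10 in inhibitor samples, against 7.23, 7.62 and 7.78 in vehicle samples (-0.49 ± 0.18, limma adjusted p = 0.143). Its groups lay apart by a narrow gap. ITGAV, which pairs with several beta chains to bind vitronectin and latent TGF-beta, had 8.42, 8.50 and 8.45 with inhibitor and 8.63, 8.56 and 8.61 with vehicle (-0.15 ± 0.14, limma adjusted p = 0.571). The collagen receptor subunits ITGA1, ITGA2 and ITGA11 had differences of 0.12, 0.33 and 0.37 (limma adjusted p = 0.760, 0.388 and 0.360). The laminin receptor subunits ITGA3 and ITGA6 had differences of 0.29 and 0.44 (limma adjusted p = 0.304 and 0.318). All 5 lay above 0 and none passed. For ITGA4 the difference was -0.24 ± 0.32 (limma adjusted p = 0.689), with vehicle replicate 1 at 6.58 beside 5.67 and 5.61 in the other vehicle samples, and for ITGAE it was 0.14 (limma adjusted p = 0.652).

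Limma called 0 of the 3 measured integrin beta genes, and 0 reached an unadjusted p under 0.05, against 5.45% and 24.4% of all genes tested. ITGB1, the common partner of the collagen, laminin and fibronectin receptors, had levels of 10.95, 11.14 and 11.24 in inhibitor samples, against 10.87, 11.18 and 11.11 in vehicle samples. The groups overlapped throughout, with a difference of 0.06 ± 0.16 (limma adjusted p = 0.867) and 0.18 on its other kept probe. ITGB5, a vitronectin receptor subunit, gave -0.22 ± 0.20 (limma adjusted p = 0.539), and its other 2 kept probes gave -0.03 and 0.02. ITGB2 gave -0.21 (limma adjusted p = 0.433). The median over the integrin alpha genes was 0.13, with 6 above 0 and 4 below, and over the integrin beta genes -0.21, with 1 above 0 and 2 below, beside 0.03 for all genes.

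The values of the 3 inhibitor and the 3 vehicle samples did not overlap for 19 of the 42 genes (45.2%), against 31.5% of all genes tested. Of these, 9 lay higher with inhibitor and 10 lower, against 2142 higher and 1502 lower of all 11582 genes tested. COL24A1 and COL12A1, kept through the inhibitor arrays alone, are among the 9. Of the 32 genes detected on all 6 arrays 17 did not overlap (53.1%), with 7 higher and 10 lower, against 32.7% of the 9784 genes so detected. Collagens made up 11 of the 19, with 7 higher and 4 lower, laminins 3, with 1 higher and 2 lower, integrin alpha genes 4, with 1 higher and 3 lower, and integrin beta genes 1, which was lower. COL6A1 and COL6A2 had a median of -0.68 and the transmembrane COL13A1 and COL23A1 one of -0.56.

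**Figure D4:**
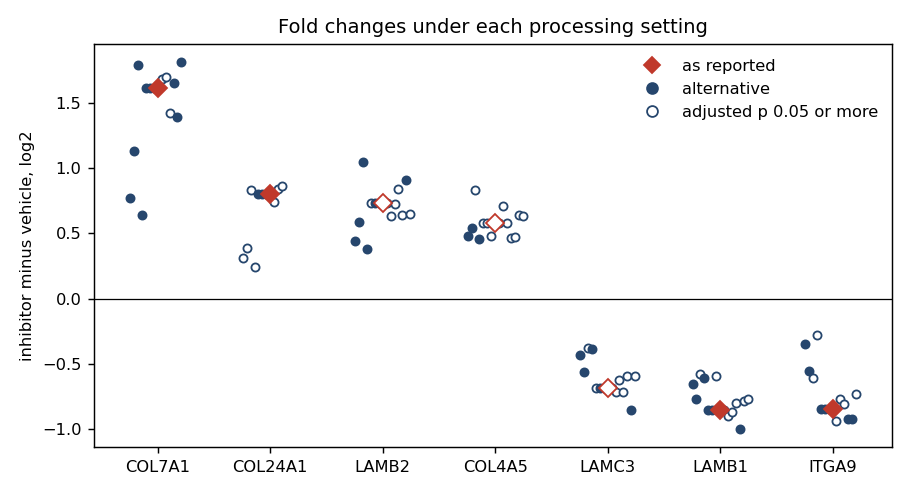
Difference between inhibitor and vehicle samples (log2, vertical axis) of 7 genes as reported (red diamonds) and under each alternative setting that tested them (blue points), open where the adjusted p was 0.05 or more. No gene crosses 0, and COL7A1 passed under 11 of 14 alternatives, against 3 of 11 for COL24A1 and 7 of 14 for ITGA9. COL24A1 was measured only through the inhibitor arrays and so had to lie above 0.

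Collagen chains need enzymes and chaperones in the endoplasmic reticulum to fold and leave the cell. In the list of such genes 2 of 22 measured genes were called (9.09%), both lower with inhibitor. Of all genes tested 5.45% were called, and 1.86% were called lower. SERPINH1, which encodes the collagen-specific chaperone HSP47, had levels of 6.28, 6.20 and 6.10 in inhibitor samples, against 7.10, 7.33 and 7.59 in vehicle samples, and fell by 1.15 on the log2 scale (SE 0.17, limma adjusted p = 0.0189). FKBP10, a prolyl isomerase that acts on procollagen, had 6.34, 6.38 and 6.48 with inhibitor and 7.72, 7.29 and 7.32 with vehicle, and fell by 1.04 (SE 0.17, limma adjusted p = 0.0201). For both genes the groups stood well apart. The list's median was -0.09, with 6 genes above 0 and 16 below. When each sample was left out in turn the difference lay between -1.28 and -1.01 for SERPINH1 and between -1.12 and -0.91 for FKBP10. Neither passed without inhibitor replicate 1, 2 or 3 (limma adjusted p between 0.0694 and 0.0986) or after median centring (0.0611 and 0.127).

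**Figure D5:**
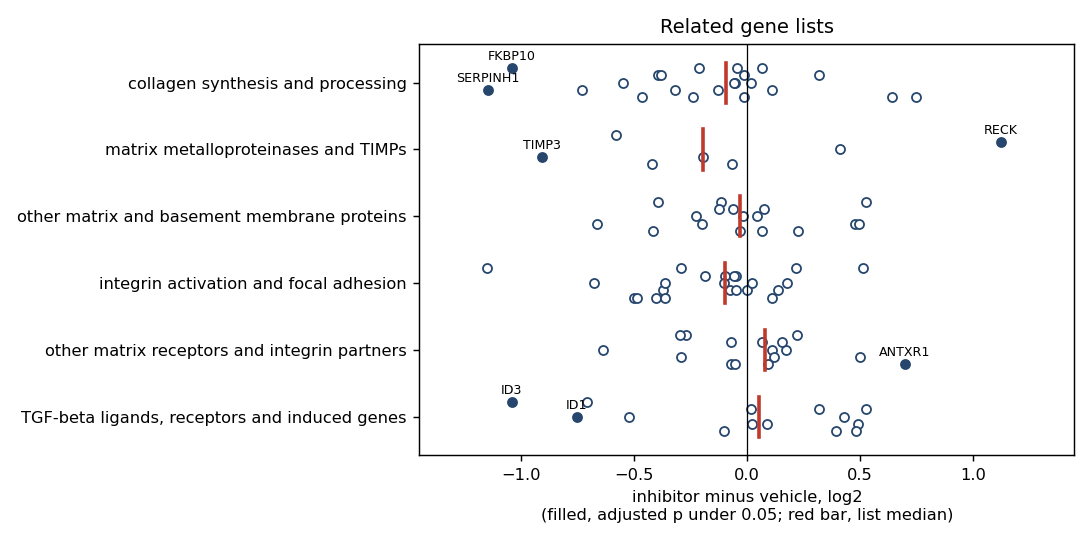
Difference between inhibitor and vehicle samples (log2, horizontal axis) for the measured genes of 6 related gene lists, with called genes filled and named and each list's median as a red bar. The 6 medians lie between -0.20 and 0.08.

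Of 7 measured matrix metalloproteinases and their inhibitors, 1 was called higher and 1 lower, against 3.59% higher and 1.86% lower of all genes tested. RECK, a membrane-anchored inhibitor of metalloproteinases, had levels of 7.22, 7.55 and 7.84 in inhibitor samples, against 6.27, 6.14 and 6.82 in vehicle samples, and rose by 1.12 ± 0.23 (limma adjusted p = 0.0316). TIMP3, a secreted inhibitor held in the matrix, had levels between 4.95 and 5.27 with inhibitor and between 5.84 and 6.13 with vehicle, and fell by 0.91 (SE 0.16, limma adjusted p = 0.0269). Its inhibitor values were close to the lowest detected levels of those arrays, 5.03, 4.94 and 4.95. Without background correction the TIMP3 difference was -0.32 (limma adjusted p = 0.0527), so its size depends on that correction. The groups overlapped for neither RECK nor TIMP3. In the deposited processed values RECK passed at 0.56 (limma adjusted p = 0.0186) and TIMP3 did not, at -0.25 (limma adjusted p = 0.0706). Neither passed without inhibitor replicate 1, 2 or 3 (limma adjusted p between 0.0786 and 0.130), nor RECK without vehicle replicate 1 or 2 (0.0669 and 0.0609).

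Of 16 measured other matrix receptors and integrin partners, ANTXR1 was the called gene (6.25%, against 5.45% of all genes tested). This collagen-binding anthrax toxin receptor had levels of 10.19, 10.49 and 10.42 in inhibitor samples, against 9.71, 9.48 and 9.81 in vehicle samples (0.70 ± 0.17, limma adjusted p = 0.0456). With its kept probes averaged the difference was 0.05 (limma adjusted p = 0.883), and it did not pass when any of the 6 samples was left out (limma adjusted p between 0.0647 and 0.163). In the list of TGF-beta ligands, receptors and induced genes, 2 of 14 were called (14.3%), both lower, against 1.86% of all genes tested called lower. ID3 fell by 1.04 (SE 0.24, limma adjusted p = 0.0406) and ID1 by 0.75 (SE 0.19, limma adjusted p = 0.0497). Both encode inhibitors of DNA binding that SMAD signalling induces. The list's median was 0.05, with 9 genes above 0 and 5 below. ID3 had 9.24, 8.59 and 8.81 in inhibitor samples, against 9.49, 10.13 and 10.13 in vehicle samples. ID1 had 7.94, 7.56 and 7.40 with inhibitor and 8.50, 8.44 and 8.21 with vehicle. Neither passed after median centring (limma adjusted p = 0.0815 for ID3 and 0.398 for ID1). ID1 was lost when any of the 6 samples was left out (limma adjusted p between 0.0677 and 0.184), and ID3 without inhibitor replicate 1, 2 or 3 or vehicle replicate 2 or 3 (between 0.0798 and 0.146).

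No gene was called among 23 measured genes of integrin activation and focal adhesion, whose median was -0.10 with 7 above 0 and 16 below, nor among 17 other matrix and basement membrane proteins, whose median was -0.03. In limma 7 of the 23 and 3 of the 17 reached an unadjusted p under 0.05, beside 24.4% of all genes. These lists were not tested as sets. Markers of matrix-producing cells were read beside them. Of 12 fibroblast and smooth muscle markers, PDPN, LUM, ACTA2 and S100A4 were detected on all 6 arrays and FAP, PDGFRB, THY1, DPT and MYH11 on 0, and their summed linear levels were 1280 to 1473 in inhibitor samples and 1133 to 1390 in vehicle samples. The proteoglycan gene DCN of that list had 6.64, 6.42 and 6.59 in inhibitor samples, against 4.82, 5.46 and 5.52 in vehicle samples, and rose by 1.29 ± 0.21 (limma adjusted p = 0.0198, and between 0.0838 and 0.100 without inhibitor replicate 1, 2 or 3). Its value in vehicle replicate 1 was below the lowest detected level of that array, 5.16. Without background correction the DCN difference was 0.52 (limma adjusted p = 0.0106), so the size of the rise depends on that correction. The sums of 11 mesenchymal and neural markers were 10255 to 10917 with inhibitor and 12052 to 12559 with vehicle, although the called gene of that list, TUBB3, was higher with inhibitor (1.08, limma adjusted p = 0.0336) and the median of its 10 measured genes was -0.05. The sums of 11 leukocyte markers were 484.7 to 526.4 with inhibitor and 416.1 to 464.4 with vehicle. CD14 of that list was called higher (1.06, limma adjusted p = 0.0429), but in the deposited processed values it did not pass (0.32, limma adjusted p = 0.0590). TUBB3 and CD14 did not pass without inhibitor replicate 1, 2 or 3 or vehicle replicate 1 or 2 (limma adjusted p between 0.0658 and 0.166). The sums of 16 luminal markers were 820.2 to 1004 with inhibitor and 799.1 to 876.1 with vehicle. Their part in the differences of the collagens, laminins and integrins was not tested.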

How the data were processed

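RNA of 6 samples, 3 per group, was hybridised to Illumina HumanHT-12 V4.0 arrays. Per the file headers, the deposited table of the whole series holds each probe's linear intensity and its detection p-value on each array, not normalized between arrays. The submitters' processing notes name lumi, with no version. The deposited processed values appear to be on a log2 scale, from their column median of 7.16, although the sources used here do not state the log base. Within each array they had the order of the intensities (Spearman rho 1), and across probes their group differences followed those of quantile-normalized log2 intensity (r = 0.996), with a weaker relation to those of the normalized values described next (r = 0.909). They served as an alternative.

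In R 4.3.3, limma 3.58.1 corrected the intensities for background (normexp by neqc from the detection p-values, offset 16), quantile normalized them and took log2. Of 47321 probes, the 19958 detected (p under 0.05) on 3 or more arrays were kept. Background correction of this kind widens differences of dim probes, and quantile normalization removes a shift shared by most genes. Levels of different probes are not compared. Per the platform annotation, 30112 probes had 1 gene symbol, 8 several and 17201 none, and symbols were updated by gene ID with RefSeq on GRCh38.p14, which matched 30073. The kept probe with the highest mean stood for a gene, for 3054 genes with several, which left 11582 genes. No source used here names the array's own build, and the coordinates printed are RefSeq's, whose promoter table held 57 of the 83 genes.

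The comparison used lmFit and eBayes of limma on every kept probe without a covariate, with Benjamini-Hochberg adjustment over the genes and a threshold of 0.05. The design was tested on simulated data. Groups share replicate numbers 1 to 3, but same-numbered samples deviated from their group means with correlations of -0.142, 0.0204 and 0.118, so the numbers were not taken to pair samples. The number of arrays limits the precision. Alternatives were another or no background correction, median centring, the deposited processed values, other filters, the mean of a gene's probes, another variance model, the replicate block and leaving out each sample.

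The members and lists were chosen with earlier results of these data known. Genes named are every called member, every laminin, integrin and collagen gene detected on all 6 arrays, members detected on all 3 arrays of 1 group only, symbols that encode no chain, and called genes of the related lists. The 3 members of each class with the smallest p-value or the highest level were named too, and partner chains and genes detected on 0 arrays were added after their values were seen.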

Additional observations from a re-analysis of the deposited data

How the results depend on the processing

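Under 15 alternative settings, 27 of the 42 measured genes kept the direction of their difference in every setting that tested them. COL7A1, LAMB1 and ITGA9 were among these. So was COL24A1, but it was measured only through the inhibitor arrays and had to differ in that direction. The number of the 42 past the threshold, 4 as reported (2 higher, 2 lower), was 2 after median centring (0 lower), 7 with a trended and robust variance model (4 higher) and 1 with the replicate block (1 higher, 0 lower), a pairing that the deviations of the samples did not bear out. With the mean of all kept probes 1 was lower. With the filter of detection p under 0.01 on all 6 arrays, which tested 25 of these genes, 1 was higher. That filter left out COL7A1, COL24A1 and ITGA9, so the higher gene was neither of the 2 reported as higher. When each sample was left out in turn the number ranged from 0 to 4, with 0 to 2 higher and 0 to 3 lower.

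For all genes, 416 were called higher and 215 lower. The counts were 816 and 541 without background correction, 725 and 451 with an offset of 50, 816 and 539 in the deposited processed values, 762 and 478 with the trended model, and 28 and 12 with the replicate block. Median centring, which moved the median difference of all genes to 0.24 beside 0.03, gave 675 higher and 36 lower. The filter of detection p under 0.01 on all 6 arrays, which tests fewer genes, gave 388 lower. Leaving out 1 sample gave 2 to 301 higher and 0 to 121 lower. Beyond fewer samples or genes where a setting has them, the cause was not tested.

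The collagen median was -0.27 with that stricter filter, and -0.25 to 0.059 with 1 sample left out. The integrin alpha median was 0.28 after median centring, -0.0018 with the stricter filter and 0.03 to 0.20 with 1 sample left out, and the integrin beta median 0.10 after median centring and -0.23 to -0.11. The laminin median ranged from -0.23 to -0.11 with 1 sample left out. Of 598 values of single genes, 27 reversed. After median centring COL18A1 stood at 0.033, COL5A2 at 0.23, ITGAV at 0.12, ITGB2 at 0.10, ITGB5 at 0.010 and LAMC1 at 0.17, and without the filter on dim probes COL12A1 stood at -0.30, since another probe then stands for it. With 1 sample left out, the ranges crossed 0 for COL11A2 (-0.10 to 0.19), COL5A2 (-0.21 to 0.059), COL8A2 (-0.080 to 0.23), COL16A1 (-0.12 to 0.13), LAMA4 (-0.99 to 0.10), LAMB2P1 (-0.33 to 0.16), LAMC1 (-0.14 to 0.10), ITGA1 (-0.028 to 0.23), ITGA4 (-0.45 to 0.069) and ITGB1 (-0.034 to 0.14).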
